A study of Mus musculus with 74 samples.

Results

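Cdkn1a, Ccnd1 and Cdc6 were followed as 3 regulators of the passage from G1 into S phase on mouse cDNA arrays that set TGF-β-treated cells against untreated cells of the same line. The members are the array features whose only gene symbol in the platform annotation is one of these 3 names. They number 4 of 8976 features, with 1 feature for Cdkn1a, 1 for Ccnd1 and 2 for Cdc6, and each feature was kept separate. A feature is a spot of cDNA, and its value is the log2 ratio of both channels of an array after the median of that array was subtracted, so 0 is the median feature of the array. The rule did not use any measured value, but the genes were chosen with earlier results of these data known.

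The 74 arrays fall into 25 groups, from 5 lines (S2WT, S3WT, S2KO, S3KO and U0126) at 0, 0.3, 1, 2 and 4 h. Each group had 3 arrays except S3KO at 1 h, which had 2. By the labels, channel 1 held RNA of cells without TGF-β and channel 2 RNA of the same line with TGF-β, and at 0 h both channels held RNA without it. S2WT and S3WT are labelled wild type and S2KO and S3KO knockout. S2 and S3 stand for Smad2 and Smad3 in the published study but are not spelled out in the labels, and U0126 is an inhibitor of the kinase MEK. The labels used here give no cell type, passage, TGF-β dose or allele. The titles of the U0126 arrays set S2WT against U0126, whereas their channel labels name both together in each channel, and the channel labels were followed. The U0126 arrays are thus read as S2WT cells with the inhibitor, and they are called a line only for brevity. Among the other labels, the source names of the S2WT 4 h arrays give 2 h and those of the S3KO 0.3 h arrays name no TGF-β in either channel. Each ratio compares a line with itself and therefore checks neither the knockouts nor markers of a cell type.

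Each array gave values for 7688 to 8713 features. Precision is limited by the number of arrays, and how bright the spots were is unknown. No source states which channel was divided by which, and ratios were read as TGF-β over no TGF-β. That direction is likely, because 6 genes known to be induced by TGF-β had changes above 0 at 1 to 4 h, against the pooled 0 h arrays, in S2WT, S3WT, S2KO and U0126, among them Hbegf at 1.81 in S2WT and 2.23 in S2KO. The genes were Hbegf, Gadd45b, Snai1, Skil, Klf10 and Bhlhe40, chosen with earlier results of these data known. Not all of their changes were called. Klf10 and Skil were not called in S2WT, Skil and Snai1 in S3WT, and Bhlhe40, Klf10 and Skil in U0126. In S3KO these genes gave no such basis, with changes from -0.27 to 0.22 that were not called (limma, adjusted p = 1). With the opposite direction every sign below would turn. On the S3KO 1 h arrays the values of replicate 2 correlated with the other lines' 0 h means at r = -0.157 and those of replicate 3 at r = 0.211, across genes, which are not independent replicates. The labels do not say that replicate arrays came from separate cultures, so p-values here rest on a spread between arrays that could be technical alone. In RNA from whole cultures, fewer cells with a transcript and less of it per cell cannot be told apart.

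TGF-β is a cytostatic signal in many epithelial and other normal cells, which it holds in G1. Cdkn1a encodes p21, an inhibitor of cyclin-dependent kinases that TGF-β is known to induce through Smad proteins at Sp1-bound promoter elements. Ccnd1 encodes cyclin D1, the partner of Cdk4 and Cdk6 that growth factor signals through MEK and ERK keep high. Cdc6 helps to load the MCM helicase on replication origins, and its gene is a known E2F target.

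Positions are from the RefSeq gene table of build GRCm38.p6. The Cdkn1a feature (7141) belongs to the gene at chr17:29090979-29100722, the Ccnd1 feature (3285) to the gene at chr7:144929931-144939831, and the Cdc6 features (3777 and 5345) to the gene at chr11:98907709-98923942. The part of each transcript that a feature covers was not stated in any source used here. The promoter windows below show the starts that the RefSeq table gives for Cdkn1a and Cdc6. For Ccnd1 no promoter window was available. They run from 250 bases before to 50 bases after the start, on the plus strand, in RefSeq sequence of GRCm38.p6. Capitals mark matches, on either strand, to 6 words chosen with the windows in view: the GC box bound by Sp1 (GGGCGG), the Smad box (CAGAC), the Smad palindrome (GTCTAGAC) and the E2F words TTTCCCGC, TTTGGCGC and TTTCGCGC.
Cdkn1a, outer start, chr17:29090729-29091028: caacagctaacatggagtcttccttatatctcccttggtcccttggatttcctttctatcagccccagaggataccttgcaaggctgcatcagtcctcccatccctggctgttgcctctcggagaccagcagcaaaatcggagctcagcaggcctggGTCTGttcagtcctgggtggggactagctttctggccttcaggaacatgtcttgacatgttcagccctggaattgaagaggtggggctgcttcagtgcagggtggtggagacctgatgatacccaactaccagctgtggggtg
Cdkn1a, inner start, chr17:29093519-29093818: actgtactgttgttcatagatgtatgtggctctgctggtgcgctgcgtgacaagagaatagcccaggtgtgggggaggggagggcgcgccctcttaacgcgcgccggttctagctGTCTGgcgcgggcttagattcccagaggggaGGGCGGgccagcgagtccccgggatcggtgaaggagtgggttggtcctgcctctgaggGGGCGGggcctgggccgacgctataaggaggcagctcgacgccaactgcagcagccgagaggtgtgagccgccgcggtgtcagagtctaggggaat
Cdc6, chr11:98907901-98908200: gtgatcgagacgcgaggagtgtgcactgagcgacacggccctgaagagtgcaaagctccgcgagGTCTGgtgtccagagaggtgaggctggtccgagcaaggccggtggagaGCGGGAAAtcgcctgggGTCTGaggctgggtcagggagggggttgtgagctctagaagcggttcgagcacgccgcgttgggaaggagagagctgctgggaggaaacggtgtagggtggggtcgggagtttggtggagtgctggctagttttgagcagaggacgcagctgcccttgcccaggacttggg
The window at the outer Cdkn1a start, which is the start of the gene as given above, held the Smad box at 1 place and no GC box. The window at the inner start held the GC box at 2 places and the Smad box at 1 place. The Cdc6 window begins at 98907901, inside the gene, and is not at the gene start given above (98907709). It held 1 E2F word, TTTCCCGC, read on the minus strand, and the Smad box at 2 places. In these windows no match overlapped another. Of 32851 promoter windows in the same table, 35.7% held the GC box, 49.6% the Smad box and 1.07% TTTCCCGC. The palindrome was in 0.213%, TTTGGCGC in 0.514% and TTTCGCGC in 0.323%, and none of the windows shown held any of these words. A match describes these letters only, and no binding was measured here.

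Cdkn1a was the steadiest of the 4 features and lay above the array median almost throughout, with or without TGF-β. It was measured on 73 of 74 arrays and was above 0 on 69 of them. At 0 h, where neither channel had received TGF-β, it was above 0 on 12 of 14 arrays, with a median of 0.45. Of 3855 features measured on at least as many arrays, 111 (2.88%), Cdkn1a included, were above 0 at least as often. Its SD within groups was 0.26, lower than in all but 9.6% of the features, where the median feature had 0.58. The level at 1 to 4 h therefore has to be read against the 0 h arrays rather than against 0.

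In S2KO the Cdkn1a ratios at 0 h were 0.83, 0.35 and 0.18. At 0.3 h they were 0.36, 0.32 and 0.59, and at 1 h 0.90, 0.82 and 0.45. They reached 0.72, 0.46 and 1.10 at 2 h and 1.13, 0.77 and 0.86 at 4 h. Most treated arrays of S2KO from 1 h on were high, 8 of 9 above the mean of the 0 h arrays, while a single 0 h array overlapped them. Late responses are given below as the mean of the 1, 2 and 4 h groups minus a 0 h level, fitted over all arrays with limma's moderated test, adjusted by Benjamini-Hochberg over all features tested and called at an adjusted p under 0.05. Against its own 0 h arrays the S2KO response was 0.35 ± 0.18 (SE), which was not called (adjusted p = 0.636). Against the mean of the 0 h groups of all 5 lines it was 0.41 ± 0.12 and was called by limma (adjusted p = 0.0384), in a comparison that called 2.49% of all features. That call was lost in 14 of 24 fits without 1 array, the values running from 0.35 to 0.46, and without the S3KO 0 h arrays, whose Cdkn1a mean was lowest, in the pool (0.31, adjusted p = 0.248).

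In S2WT the Cdkn1a ratios were 0.23, 0.49 and 0.06 at 0 h and 0.46, 0.63 and 0.14 at 0.3 h. They were 0.53, 0.43 and 0.33 at 1 h, 0.86, 0.64 and 0.47 at 2 h and 0.76, 0.37 and 0.78 at 4 h. All 9 late arrays lay above the 0 h mean, and their range overlapped the highest 0 h array. The late response was 0.31 ± 0.18 against its own 0 h arrays (limma, adjusted p = 0.732), where 0.192% of features were called, and 0.18 ± 0.12 against the pooled ones (adjusted p = 0.543), where 1.27% were. The S2WT and S2KO responses against own 0 h arrays differed by 0.04 (95% interval -0.47 to 0.54, limma adjusted p = 0.991).

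S3WT showed no called response. Its Cdkn1a ratios were 0.53, 0.41 and 0.53 at 0 h and 0.65, 0.50 and 0.52 at 0.3 h, and the 9 later ones ran from 0.16 to 0.76 with a median of 0.48. The 0 h arrays lay inside the range of the late ones, and the response against own 0 h arrays was -0.09 ± 0.18 (limma, adjusted p = 1).
In S3KO the 0 h ratios were -0.22, -0.28 and 0.48, and the 0.3 h ratios were 0.20, 0.36 and 0.30. Ratios of -0.33 and 0.34 followed at 1 h, then 0.16, 0.27 and 0.66 at 2 h and 0.61, 0.24 and 0.76 at 4 h. The S3KO 0 h arrays differed more among themselves than those of the other lines, and they overlapped the late ones. The S3KO response was 0.30 ± 0.18 against own 0 h arrays (limma, adjusted p = 0.616) but -0.09 ± 0.12 against the pooled ones (adjusted p = 1), so its sign turned with the background. The 2 groups with the lowest Cdkn1a means of all 25 were S3KO at 0 h (-0.01 ± 0.43 SD, n = 3) and at 1 h (0.00 ± 0.47, n = 2).

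In the U0126 arrays the highest Cdkn1a ratios came before TGF-β. The 0 h arrays gave 0.85 and 0.68, with no value for replicate 2, and the mean of 0.77 ± 0.12 (SD, n = 2) was called away from 0 by limma (adjusted p = 0.00935). The ratios were 0.62, 0.51 and 0.45 at 0.3 h and -0.56, 0.61 and 0.38 at 1 h. They were 0.52, 0.62 and 0.46 at 2 h and 0.32, 0.39 and 0.46 at 4 h. All 9 late arrays lay below both 0 h arrays, with no overlap. The share of all features separated in this way was not counted. The response was -0.41 ± 0.21 against own 0 h arrays (limma, adjusted p = 0.811) and -0.04 ± 0.12 against the pooled ones (adjusted p = 0.951). The U0126 response minus that of S2WT was -0.72 ± 0.27 (unadjusted p = 0.0113), which failed the adjustment over all features (limma, adjusted p = 0.737).

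**Figure D1:**
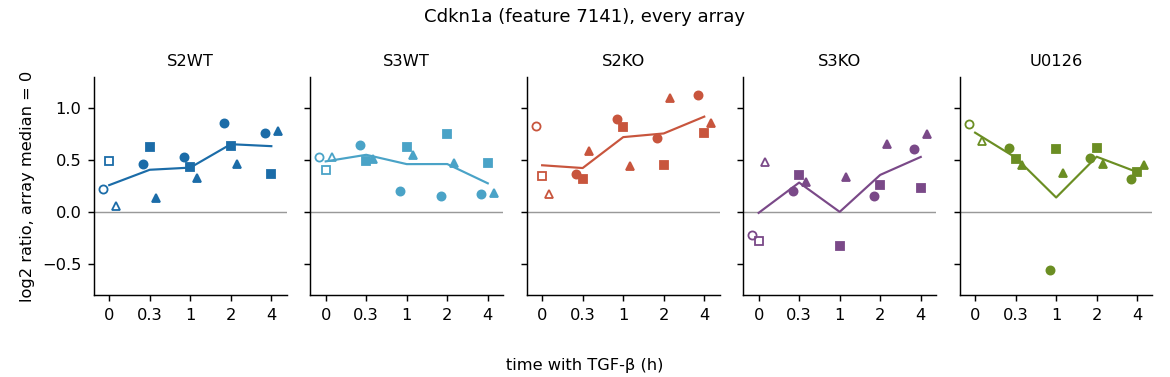
Log2 ratio of the Cdkn1a feature (array median at 0) on each array, by line, against time with TGF-β in hours at even spacing. Circles, squares and triangles are replicates 1, 2 and 3, open symbols are 0 h arrays without TGF-β in either channel, and lines join group means. Values lie above 0 on 69 of 73 arrays, and the S2KO arrays at 1 to 4 h reach from 0.45 to 1.13.

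In order of the late mean, Cdkn1a stood at 0.80 in S2KO, 0.57 in S2WT, 0.40 in S3WT, 0.35 in U0126 and 0.34 in S3KO. The ranges of the late arrays of neighbouring lines overlapped in each case. The 0 h means had another order, 0.77 in U0126, 0.49 in S3WT, 0.45 in S2KO, 0.26 in S2WT and -0.01 in S3KO. From 1 to 4 h the ratio moved by 0.53 ± 0.25 in S3KO (limma, adjusted p = 0.837) and by -0.19 to 0.24 in the other 4 lines, none of it called. The genes whose 25 group means were most like those of Cdkn1a were Tmem115 (Pearson r = 0.879), Serpinf1 (r = 0.848) and Lemd2 (r = 0.835). Likeness here is over group means that share arrays and their 0 h offsets, and it is given as a description.

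Ccnd1 stayed close to the array median in S2WT, S3WT, S2KO and S3KO apart from single arrays, and its only called response rested on 1 array. It was measured on 73 arrays, 38 above 0 and 35 below, with a median of 0.01 over all arrays. The SD within groups was 0.77, above that of 63.9% of the features.

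In S2KO the Ccnd1 ratios at 0 h were 0.38, 5.53 and -0.02. At 0.3 h they were -0.21, 0.03 and -0.27, and at 1 h 0.12, 0.85 and -0.14. They were -0.12, -0.32 and 0.16 at 2 h and -0.27, -0.17 and -0.49 at 4 h. Replicate 2 at 0 h stood far above every other Ccnd1 value of the series, and the other 2 arrays of that group overlapped the late ones. The response against own 0 h arrays was -2.0 ± 0.51 and was called by limma (adjusted p = 0.0473), in a comparison that called 0.515% of features. Without replicate 2 at 0 h it was -0.22 (adjusted p = 0.999), and 4 of 12 fits without 1 array called it. Against the pooled 0 h arrays, which hold the same array, the response was -0.46 ± 0.33 (limma, adjusted p = 0.56). The 0 h mean itself, 1.96 in S2KO, was called away from 0 (limma, adjusted p = 0.00521).

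In S2WT the Ccnd1 ratios at 0 h were 0.15, 0.11 and 0.03, and the 9 late ones ran from -0.90 to 0.30 with a median of 0.00. Those of S3WT were 0.01, 0.13 and -0.20 at 0 h and ran from -0.32 to 0.30 afterwards, with a median of -0.17. S3KO gave 0.58 and 0.15 at 0 h, with replicate 1 missing, and late values from -0.37 to 0.28. In each of these lines the late and 0 h arrays overlapped. The responses against own 0 h arrays were -0.14 ± 0.51 in S2WT, -0.02 ± 0.51 in S3WT and -0.35 ± 0.60 in S3KO, with limma adjusted p from 0.972 to 1, in comparisons that called 0.192%, 0.12% and 1.53% of features.
In U0126 the Ccnd1 arrays were scattered up to 1 h. Their ratios were 0.54, -1.64 and 0.21 at 0 h, 0.42, -0.62 and 0.06 at 0.3 h and -2.09, 0.37 and -1.10 at 1 h. They were 0.21, 0.47 and -0.06 at 2 h and -0.29, 0.15 and -0.15 at 4 h. At 2 and 4 h they lay together near 0, inside the spread of the 0 h arrays. The response was 0.02 ± 0.51 against own 0 h arrays, where 0.0719% of features were called, and -0.70 ± 0.33 against the pooled ones, where 0.782% were (limma, adjusted p = 0.999 and 0.425).

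**Figure D2:**
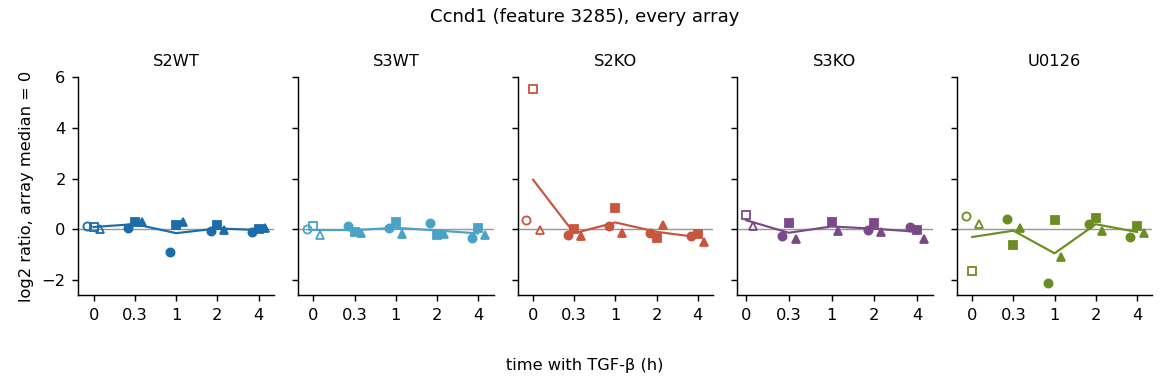
Log2 ratio of the Ccnd1 feature (array median at 0) on each array, by line, against time with TGF-β in hours at even spacing, with symbols as in the plot of Cdkn1a. The S2KO 0 h array of replicate 2 is at 5.53, and most arrays of S2WT, S3WT and S3KO lie within a narrow band around 0.

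The late means of Ccnd1 were 0.01 in S3KO, -0.04 in each of S2KO, S2WT and S3WT and -0.28 in U0126, and the ranges of all 5 lines overlapped. The response of S2KO minus that of S2WT was -1.86 ± 0.72 (limma, adjusted p = 0.557), and -0.08 without the S2KO 0 h replicate 2. The genes with the most similar group means were Tpp1 (r = 0.803), Efnb3 (r = 0.79) and Wdr34 (r = 0.787), again over 25 group means that include the S2KO 0 h group.

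For Cdc6 the features gave different accounts. Feature 5345 lay below the array median on 57 of 68 arrays, 37 of 40 at 1 to 4 h and 9 of 14 at 0 h. It reached its lowest group means in S2KO. Feature 3777 was above 0 on 35 of 65 arrays, and 1 of its missing values was at the upper limit of the deposited ratios. Their group means had the same sign in 12 of 25 groups, all 12 below 0, and correlated at r = -0.286 over the 25 means. The SDs within groups were 1.02 for feature 5345 and 0.79 for 3777, above those of 79.2% and 65.2% of the features.

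In S2KO the ratios of feature 5345 were -1.26, -0.38 and 0.26 at 0 h and -0.35, 0.37 and -4.50 at 0.3 h. At 1 h they were -2.08 and -2.30, at 2 h -4.37 and -0.91, and at 4 h -2.29, -2.89 and -1.12, with 1 array missing at 1 h and 1 at 2 h. All 7 late arrays were below 0, and those at -0.91 and -1.12 lay above the lowest 0 h array, at -1.26. Against the pooled 0 h arrays Cdc6 fell by 2.09 ± 0.47 on the log2 scale on this feature (limma, adjusted p = 0.00568), in the comparison that called 2.49% of features. Against its own 0 h arrays the response was -1.85 ± 0.70 (adjusted p = 0.357), in a comparison that called 0.515%. The pooled call held in 23 of 24 fits without 1 array and was lost without replicate 2 at 2 h (-1.52, adjusted p = 0.0891) and with array weights (-1.80, adjusted p = 0.0754).
Feature 3777 in S2KO gave 0.62, 0.43 and 0.32 at 0 h and 2.93, 0.25 and 0.34 at 0.3 h. It gave -1.40 and -1.06 at 1 h, 4.08, 0.82 and 1.87 at 2 h and 0.45 and 0.18 at 4 h. At 2 h its values were above 0 and those of feature 5345 below 0. Replicate 1 at 2 h, where feature 3777 was at 4.08, had no value of feature 5345. At 1 h both features were below 0, and only replicate 1 had values of both. Its response against own 0 h arrays was -0.01 ± 0.54 (limma, adjusted p = 0.998). It was not tested against the pooled 0 h arrays, because S3KO had a single 0 h value of it.

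In S2WT feature 5345 gave -0.16, -0.19 and 0.08 at 0 h and -1.03, -1.80 and -0.33 at 0.3 h. At 1 h it gave -0.48 and -0.43, at 2 h -2.31, -0.27 and -0.84, and at 4 h -2.30, -1.50 and -0.49. All 8 late arrays lay below the 0 h arrays, without overlap, and how many of all features did so was not counted. The response was -0.92 ± 0.68 against own 0 h arrays (limma, adjusted p = 0.863), where 0.192% of features were called, and -0.79 ± 0.45 against the pooled ones (adjusted p = 0.486). Feature 3777 was at 1.51, -0.09 and -0.06 at 0 h in S2WT and between -0.50 and 0.81 at 1 to 4 h, 7 of 9 arrays above 0, and its response was -0.27 ± 0.52 (adjusted p = 0.998).

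In S3WT feature 5345 was low before TGF-β, with -0.66, -0.09 and -1.49 at 0 h. Its 9 late arrays were all below 0 with a median of -0.44, but 8 of them lay above the 0 h mean of -0.75. The remaining array, replicate 3 at 4 h, was at -4.18. The response was -0.08 ± 0.67 against own 0 h arrays (limma, adjusted p = 1) and -0.61 ± 0.43 against the pooled ones (adjusted p = 0.791), where 0.146% of features were called. Without replicate 3 at 4 h the response against own 0 h arrays was 0.345.
S3KO started at 0.27, 1.15 and -0.68, and its 7 late values ran from -1.06 to 0.40 with a median of -0.28. The U0126 arrays started at 0.25 and -0.31, and their 9 late values ran from -1.18 to 0.90 with a median of -0.63. In S3WT, S3KO and U0126 the late and 0 h arrays overlapped. The responses against own 0 h arrays were -0.66 ± 0.70 in S3KO and -0.42 ± 0.79 in U0126 (limma, adjusted p = 0.912 and 0.999). Against the pooled 0 h arrays S3KO was at -0.19 ± 0.47 (limma, adjusted p = 1), where 0.0141% of features were called, and U0126 at -0.24 ± 0.43 (adjusted p = 0.906), where 0.782% were.

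Feature 3777 in U0126 had a late median of 0.40 and 9 of 9 late arrays above the 0 h mean of -0.34, although 1 of its 0 h arrays, at 0.05, lay among them. Its response of 0.71 ± 0.52 was not called (limma, adjusted p = 0.999). In S3WT and S3KO it was left untested by the minimum of 2 arrays per group, with 1 array at 1 h in the former and 1 at 0 h in the latter.

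**Figure D3:**
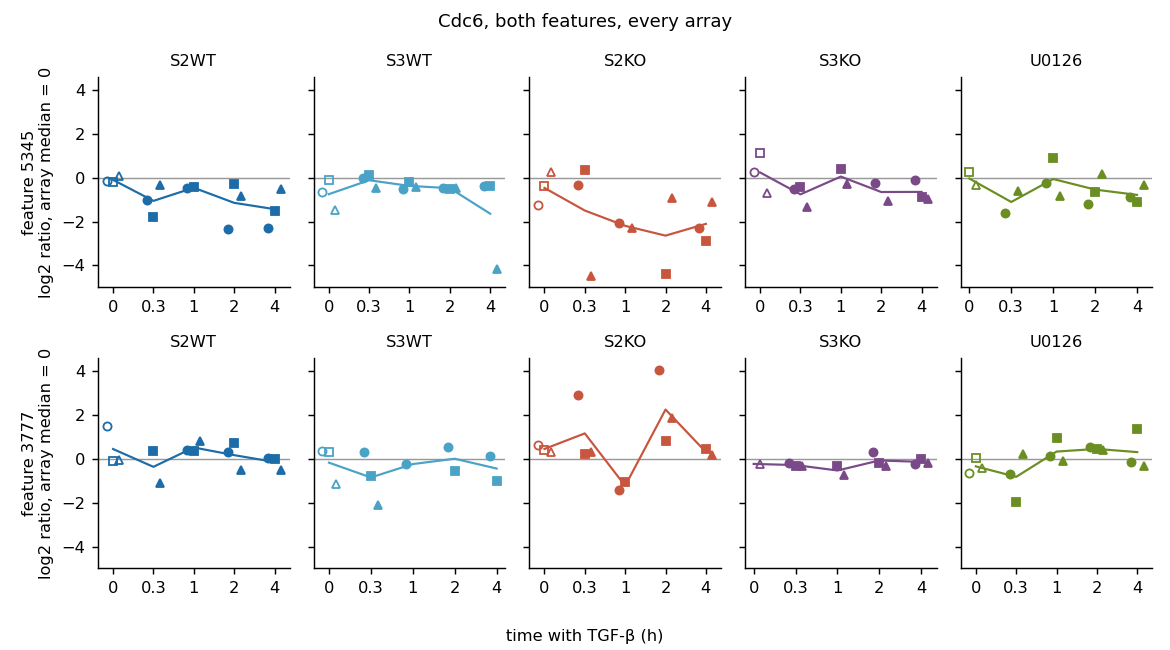
Log2 ratios of Cdc6 features 5345 (upper row) and 3777 (lower row) on each array (array median at 0), by line, against time with TGF-β in hours at even spacing, with symbols as in the plot of Cdkn1a. All 7 late S2KO arrays of feature 5345 are below 0, while feature 3777 reaches 4.08 in S2KO at 2 h.

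In order of the late mean, feature 5345 stood at -2.28 in S2KO, -1.08 in S2WT, -0.82 in S3WT, -0.46 in U0126 and -0.44 in S3KO, and the ranges of neighbouring lines overlapped. The late response of S2KO minus that of S2WT was -0.94 (95% interval -2.90 to 1.03, limma adjusted p = 0.895), and that of S2KO minus S3KO was -1.20 (95% interval -3.18 to 0.79, adjusted p = 0.778). The genes with group means most like feature 5345 were Prkar1b (r = 0.751), Mat2b (r = 0.746) and Rbms2 (r = 0.702). For feature 3777 they were Apaf1 (r = 0.714), Nr3c1 (r = 0.696) and Coq5 (r = 0.694), so the features of 1 gene shared none of these genes.

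**Figure D4:**
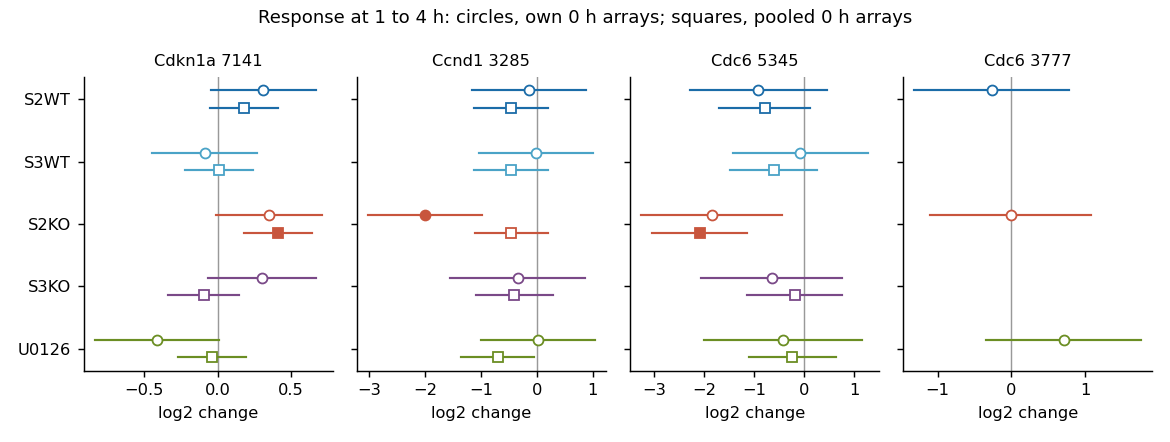
Late response (mean of the 1, 2 and 4 h groups minus a 0 h level, log2, with 95% interval) of the 4 features by line. Circles use the line's own 0 h arrays, squares the 0 h arrays of all lines, and filled symbols were called by limma. Ccnd1 in S2KO was called against own 0 h arrays, at -2.0, and Cdkn1a and Cdc6 feature 5345 in S2KO against the pooled ones, at 0.41 and -2.09.

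At 0.3 h no member was called against its own 0 h arrays, in comparisons that called 0% of features in S2WT, 0.0235% in S2KO, 0.152% in S3WT, 0.845% in S3KO and 0.0355% in U0126. The count of 0 in S2WT is limma's, with 520 features at an unadjusted p under 0.05 and 29 called with array weights. Cdkn1a moved by -0.24 to 0.29 there. Ccnd1 was at -2.11 ± 0.62 in S2KO (adjusted p = 0.281) and at -0.33 without the 0 h array at 5.53. Cdc6 feature 5345 was at -1.07 to 0.64, with 4 of 5 lines below 0.
From 1 to 4 h no member was called either, where 0.0231% of features were called in S2WT, 0.753% in S2KO, 0.0576% in S3WT, 0.19% in S3KO and 0.139% in U0126. The largest of these changes among the members was that of Cdc6 feature 3777 in S2KO, 1.54 ± 0.78 (limma, adjusted p = 0.549).
No late response of a member differed between lines by limma. The differences called 0.0386% of features for S2KO minus S2WT, 0.126% for S3KO minus S3WT, 0.0252% for U0126 minus S2WT and 0.227% for S2KO minus S3KO. Against 0 the 0 h arrays called 0.297% of features in S2WT, 4.66% in S2KO, 3.01% in S3WT, 3.24% in S3KO and 5.34% in U0126, and among the members only Ccnd1 in S2KO and Cdkn1a in U0126. The pooled comparisons of all lines share 0 h arrays, and the own and pooled responses of a line share its treated arrays.

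Of a list of 84 other genes of G1 and S phase, 45 were measured by 56 single-symbol features. From 50 to 55 of these features were tested in each late response. Limma called 1 in S3KO against own 0 h arrays, where 1.53% of all features were called. Another was called in U0126 against the pooled ones, where 0.782% were. None of the 2 measured CDK inhibitor genes, Cdkn2c and Cdkn2d, was called in any late response. Against the pooled 0 h arrays they were at -0.35 and -0.46 in S2KO (limma, adjusted p = 0.245 and 0.284), where Cdkn1a was called higher. Of 13 features for G1 and S cyclins, kinases and the phosphatase Cdc25a, 1 was called. It was feature 1711 of Cdk6, a catalytic partner of cyclin D1, in S3KO against own 0 h arrays (1.96 ± 0.49, limma adjusted p = 0.0258). The S3KO 0 h mean of that feature was -1.95 and the late means lay between -0.20 and 0.12. Without S3KO 0 h replicate 2 the value of this Cdk6 feature was 0.22 (adjusted p = 0.999). Feature 1711 is 1 of 3 Cdk6 features. The others, 434 and 8958, were at 0.001 and 0.069 in the same comparison, and neither was called.

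Of 10 features for pocket proteins and E2F factors, E2f8, an atypical E2F that represses E2F targets, fell by 1.89 ± 0.43 in U0126 against the pooled 0 h arrays (limma, adjusted p = 0.0238). Its group means there were -0.73 at 0 h and -1.85, -0.89 and -1.65 at 1, 2 and 4 h, so the line lay low before TGF-β and its response against own 0 h arrays was -0.74 ± 0.66 (adjusted p = 0.999). E2f8 was below 0 in the other tested lines too, without a call. Against the pooled 0 h arrays it was at -0.875 in S2WT, -1.387 in S3WT and -0.761 in S3KO. Against own 0 h arrays it was at -1.479, -0.646 and -1.666 in these lines, and S2KO was not tested. The pooled E2f8 call was lost without the S3KO 0 h arrays (-1.66, adjusted p = 0.1), with the 1 and 2 h arrays alone (-1.80, adjusted p = 0.147) and in 3 of 24 fits without 1 array. None of the 12 features for origin licensing and firing, the role of Cdc6, was called in any late response that tested it. In S2KO against the pooled 0 h arrays 10 of them were tested. In S2KO against the pooled 0 h arrays, where Cdc6 feature 5345 was called, Mcm2 was at 0.20, Mcm5 at -0.58 and Mcm10 at 0.64 ± 0.19 (adjusted p = 0.0547).
None of the 15 features for replication and nucleotide supply was called, with 13 or 14 of them tested in each late response. None of the 4 for turnover and upstream regulators, Myc and Skp2 among them, was called. The list's median change against the pooled 0 h arrays was 0.08 in S2WT, -0.01 in S2KO, -0.03 in S3WT, 0.03 in S3KO and 0.04 in U0126. The medians of all features in the same comparisons lay between -0.001 and 0.009. The list held no other call in a late response, where the share of all features called ran from 0.0141% to 2.49% against the pooled arrays and from 0.0719% to 1.53% against own 0 h arrays. No difference between lines was called in the list.

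**Figure D5:**
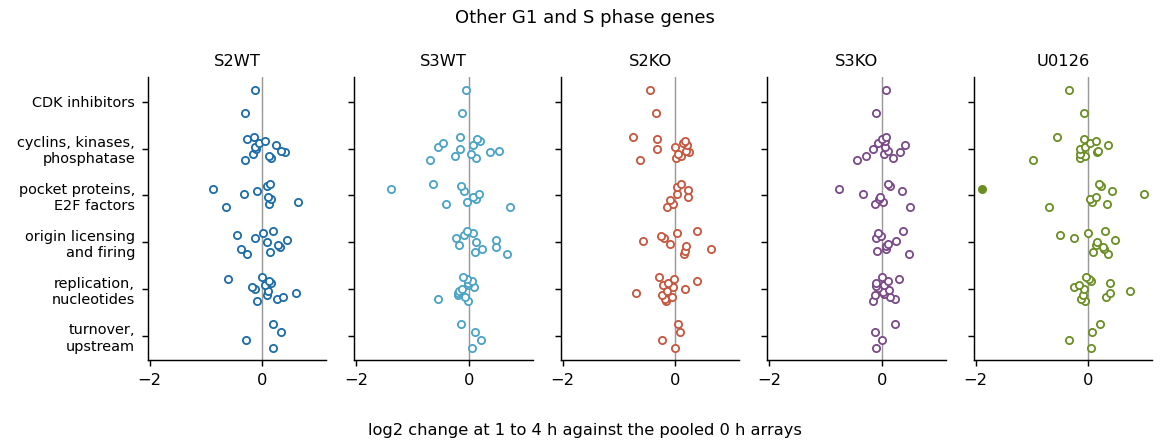
Late change (log2) of the other G1 and S phase features against the pooled 0 h arrays, by line and role, with 1 point per feature and filled points called by limma. E2f8 in U0126, at -1.89, is the single filled point, and the other features scatter on both sides of 0 in every line.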

How the data were processed

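The deposited values are log2 ratios of both channels of each array, in a series table made by the authors. How they were scanned, background-corrected and normalised, and with which dyes, is not given in any source used here. Of the cells 41670 were blank, and 1344 equalled 16.61, the log2 of a ratio of 1e+05, so values above 16.6 were set to missing. Each array was centred on its median, since the medians as deposited ran from -0.60 to 0.22. Gene symbols came from the platform annotation, and 7348 features carry a single symbol, 399 several and 1229 none.

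Group means were fitted by least squares for each feature over all 74 arrays in R 4.3.3, and variances were moderated with squeezeVar of limma 3.58.1. A feature was tested where each group of the comparison held at least 2 arrays, and Benjamini-Hochberg adjustment ran over all features of a comparison, with 0.05 as the threshold. The fit was tested on simulated data with independent, normally distributed noise. Those data held no outlying arrays, so the simulation does not cover calls that rest on a single array. The members, the list of G1 and S phase genes, the tests and the motif words were chosen with earlier results of these data known. Named genes are the members, every listed gene called in a late response or a difference (up to 4 per comparison), the 3 genes most like each member over at least 20 group means, and, chosen after their values were seen, examples from the list (Cdkn2c, Cdkn2d, Mcm2, Mcm5 and Mcm10). The genes used to judge the direction of the ratio are named as well, and they too were chosen with earlier results of these data known.

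Alternatives left arrays uncentred, scaled them, kept the 16.61 values, added the replicate number as a block, fitted only the compared lines, weighted arrays, kept features measured on every array, tested treated arrays against 0, took S3KO out of the pooled 0 h arrays, used the 1 and 2 h arrays alone or left out 1 array. A fit with the 0 and 0.3 h arrays as the baseline was added after seeing the data. Figures were drawn with matplotlib 3.10.9 in Python 3.11.15.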

Additional observations from a re-analysis of the deposited data

Results flagged for a closer look

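The late arrays of Cdkn1a lay on opposite sides of their 0 h means in U0126 and S2WT, but the difference between the lines failed the adjustment. Each of the 9 late S2WT arrays lay above the mean of its own 0 h arrays (0.26), and each of the 9 late U0126 arrays lay below the mean of its own (0.77). How many of all features show such a pattern was not counted. The difference of the responses was -0.724 on the log2 scale, with an unadjusted p of 0.0113 and an adjusted p of 0.737 by limma over 7938 features. The U0126 0 h mean comes from 2 arrays, and the late means, 0.57 in S2WT and 0.35 in U0126, were both above 0.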

How the results depend on the processing

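The S2KO call of Ccnd1 against own 0 h arrays (-2.0) was lost with uncentred arrays (-1.952), scaled arrays (-2.073), a fit of the compared lines alone (-2.002), treated arrays against 0 (-0.041), the 1 and 2 h arrays (-1.869) and the early baseline (-0.947), which was chosen after seeing the data. Without 1 array it ran from -2.991 to -0.219, and the related values of Ccnd1 ran from -3.1 to -0.327 at 0.3 h in S2KO and from -2.851 to -0.079 for S2KO minus S2WT. Ccnd1 at 0.3 h in S2KO passed with array weights (-2.879). The pooled S2KO call of Cdkn1a (0.41) was lost with uncentred (0.295) and scaled arrays (0.3), without S3KO in the pool (0.308) and with the 1 and 2 h arrays (0.348), and ran from 0.351 to 0.458 without 1 array. The pooled S2KO call of Cdc6 feature 5345 was lost with array weights (-1.802) and ran from -2.671 to -1.517. Tested against 0, Cdkn1a passed in S2WT (0.574) and S2KO (0.8), and in S3WT (0.402) and U0126 (0.354) with the sign turned. S2KO minus S3KO passed for it too (0.502), and Cdc6 feature 5345 passed in S2WT (-1.007) and S2KO (-2.31). That alternative leaves out the 0 h arrays. For the others the cause was not tested. The S3KO call of Cdk6 was lost with uncentred arrays (1.857), the compared lines alone (1.962), treated arrays against 0 (0.013), the 1 and 2 h arrays (1.906) and the early baseline (1.037).

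Of 632 values not called and 22 called, 624 and 11 kept their side of the threshold under the alternatives other than leaving out 1 array. With 1 array left out, where a lone array was assumed to vary like the other groups, 1061 of 1064 and 37 of 60 did. Same-numbered arrays of a line had a correlation over 0.1 in 47 of 146 pairs (from -0.111 to 0.29). Differently numbered arrays were not compared, so this count cannot decide whether the numbers mark pairs. The numbers were not taken as pairs, because the labels do not say that a number marks a shared culture or day. In S3KO replicate 3, 10 of 10 pairs were over 0.1. The replicate block, which lies within a line and was not fitted to the pooled comparisons, changed no call of a member in the others, with Ccnd1 in S2KO at -2.002 (adjusted p = 0.0468).
Counts over all features moved by over 1.5 times. Calls against own 0 h arrays (16 in S2WT, 42 in S2KO, 10 in S3WT, 114 in S3KO and 6 in U0126) ran from 0 in S2KO, S3KO and U0126, fitted on the compared lines alone (426, 589 and 587 at an unadjusted p under 0.05), to 2214 in S2KO, tested against 0. Pooled calls in S2KO (185, 142 higher and 43 lower) were 64 with scaled arrays and 128, 62 higher and 66 lower, with uncentred ones. In S2WT (96, 64 higher) they were 295, 24 higher, with uncentred arrays, where the median of all features shifted to -0.175. The pooled counts of S3WT (11), S3KO (1) and U0126 (59) ran from 2 to 38, from 0 to 4 and from 18 to 171. Under the same alternatives counts at 0.3 h ran from 0 to 178, from 1 to 4 h from 0 to 209 and for the differences from 0 to 112 over their lines. Without 1 array, own counts ran from 2 to 592, pooled ones from 1 to 331, those at 0.3 h from 2 to 461, those from 1 to 4 h from 1 to 227 and the differences from 0 to 311, the highest of them (592, 461 and 311) without S3KO 0 h replicate 3. The furthest shift of that median was 0.316, in S2KO from 1 to 4 h.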
